A study of Mus musculus with 4 samples.

Results

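Marker genes of the brain regions that border the hippocampus were read in each of 4 hippocampal samples, to see how the edge of the dissection differed between mice. The markers were chosen by name, as genes known from the striatum, the neocortex, the thalamus and the habenula. Of the 33 genes, 32 were measured, among 19938 genes with a transcript of a single symbol on the arrays. Adora2a, the adenosine receptor gene of striatal neurons, was not listed in the annotation used here and was not analysed. The level of a gene is the deposited log2 value of its transcript, so that a difference of 1 is a 2-fold difference in signal. Prkch had 2 such transcripts, and the brighter was taken.

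The samples were hippocampi of male C57BL/6JJmsSlc mice aged 11 to 12 weeks, with 1 array per mouse. In the R-SDS group (2 arrays), each mouse met an aggressive ICR male for 10 min on each of 10 days and lived behind a divider from it in between (repeated social defeat stress). In the Control group (2 arrays), pairs of mice shared divided cages without defeat. The study describes its R-SDS array mice as susceptible to the stress, whereas the sample labels name only the stress. The labels number the mice 1 and 2 within each group, and no source used here says what the number stands for or which borders were followed in the dissection.

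The hippocampus is enclosed by these regions on several sides. Its cortical mantle continues through the subiculum into neocortex, the thalamus lies beneath it, the habenula sits at the dorsomedial edge of the thalamus, and the septum and striatum lie in front of it. Genes that are strong in a neighbouring region and weak in the hippocampus therefore register how much of that neighbour a sample holds. Several of the markers are not exclusive. Bcl11b and Foxp1 are also known from hippocampal pyramidal cells, Lamp5 from hippocampal interneurons, Lef1 from brain endothelium, Zic1 from the septum and meninges and Ppp1r1b from the choroid plexus. In bulk tissue, fewer cells of a type and less RNA per cell cannot be told apart.

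As a description of levels, all 7 measured markers of CA1 pyramidal cells and 10 of 12 of dentate granule cells lay at or above the median level of the 21789 tested transcripts (6.55). So did 5 of 9 striatum, 7 of 10 neocortex, 6 of 8 thalamus and 1 of 5 habenula markers, so that this level does not set the hippocampus apart from its neighbours. Pou4f1, Gpr151 and Chrna3, which define the habenula most closely, averaged below the lower quartile of all transcripts (4.99), and no other marker of the 32 did. The values carry no detection call, so these habenula genes cannot be said to be expressed. The arrays also differed in scale by replicate number. Over all rows, the middle 50% of the values (the interquartile range) spanned 3.37 log2 units for R-SDS 1 and 3.11 for R-SDS 2, against 3.34 for Control 1 and 3.06 for Control 2. Differences within each number are for this reason given beside the group differences.

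No marker passed the test between R-SDS and Control. With limma and Benjamini-Hochberg adjustment over all 21789 transcripts, 0 of the 32 markers were called, against 0% of all transcripts (0 in number). At an unadjusted p under 0.05, limma counted 0 markers, against 1.01% of all transcripts, and the methods' t-test also counted 0, against 2.02%. With the replicate number as a block, 3 markers had an unadjusted p under 0.05 (Pde10a, Gpr6 and Rspo1), against 4.81% of all transcripts, and 0 an adjusted one. Both R-SDS arrays lay above both Control arrays for 1 marker, where this held for 9.41% of all transcripts, and below both for 4 markers (12.5%), where it held for 9.06%. The differences ran from -0.33 for Rspo1 to 0.32 for Ppp1r1b, with a median of 0.01 over the 32 markers and of 0.01 over all transcripts. The gap between the 2 Control mice exceeded the group difference for 25 of the 32 markers (78.1%), a share close to the 74.6% of all transcripts. The range over the 4 arrays was above 0.5 for 9 markers (28.1%), against 18.8% of all transcripts.

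**Figure D1:**
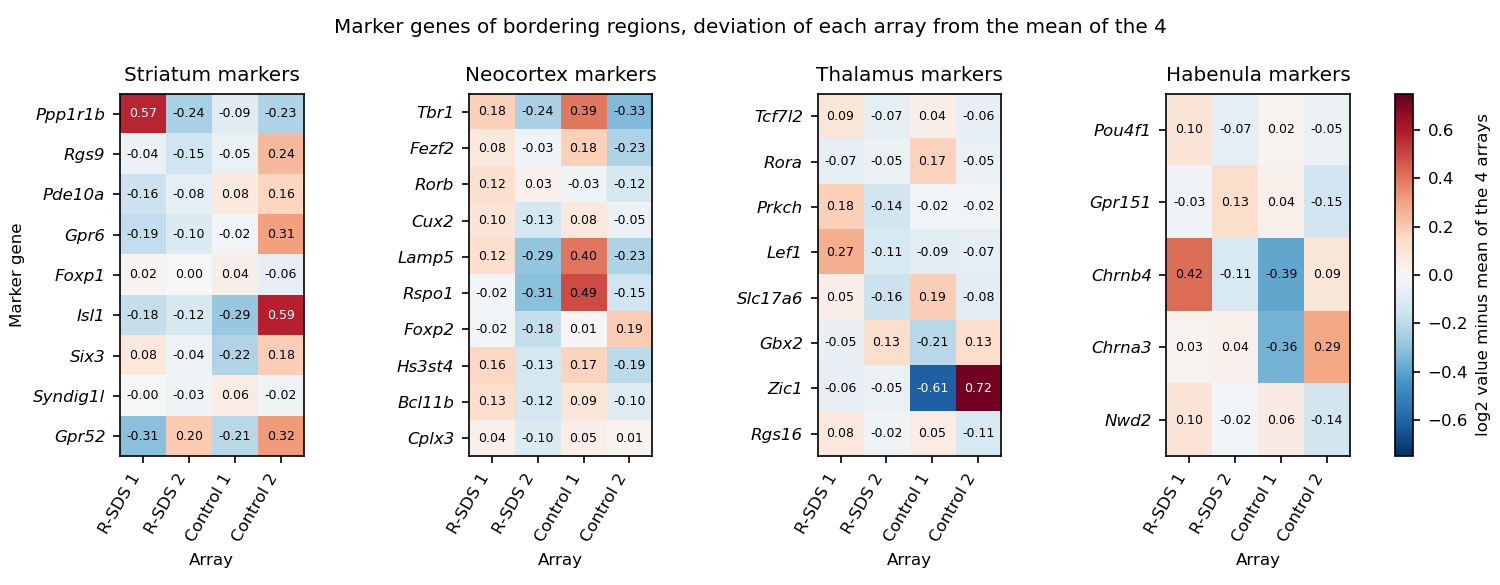
Deviation of each array (columns) from the mean of the 4 arrays, in log2 units, for the 32 measured marker genes (rows), in panels by the region they mark. The strongest colours belong to single arrays, such as Zic1 and Isl1 in Control 2 and Ppp1r1b in R-SDS 1, and not to a group.

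Striatal markers were highest in Control 2 as a group. Of the 9 measured, 6 had their highest value in Control 2, against 26.1% of all transcripts. After a further quantile normalisation 5 had, against 4665 of the 21789 transcripts. At or above the median level lie 5 of the 9. There 12.8% of transcripts were highest in Control 2, so that among dimmer ones the share was above 26.1%. The median deviation of the 9 from the mean of the 4 arrays was 0.18 in Control 2, against -0.04 in R-SDS 1, -0.08 in R-SDS 2 and -0.05 in Control 1. Isl1, a LIM-homeodomain factor of striatal projection neurons and of cholinergic neurons, measured 5.33 and 5.38 in R-SDS mice, against 5.22 in Control 1 and 6.09 in Control 2. Control 2 thus stood alone, and the other 3 mice lay close together. The 2 controls differed by 0.87, or 1.83-fold, which was a wider gap than in 99.5% of all transcripts. The group difference of Isl1 was -0.30 (SE 0.28, limma adjusted p = 1), and it was 0.13 without Control 2.

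Gpr6, an orphan receptor of indirect-pathway striatal neurons, measured 6.35 and 6.43 in R-SDS mice, against 6.52 and 6.85 in Control mice. Pde10a, the cyclic nucleotide phosphodiesterase of striatal medium spiny neurons, measured 7.88 and 7.97 in R-SDS mice, against 8.12 and 8.20 in Control mice. These were the 2 striatal markers whose groups did not overlap. Their differences were -0.29 (SE 0.16) for Gpr6 and -0.24 (SE 0.13) for Pde10a, each with a limma adjusted p of 1. Within the numbers, Pde10a differed by -0.24 in number 1 and -0.24 in number 2, and Gpr6 by -0.17 and -0.41. The Gpr6 difference was -0.13 without Control 2 and -0.46 without Control 1.

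Gpr52, another orphan receptor of striatal neurons, followed the replicate number, with 6.92 in R-SDS 1 and 7.43 in R-SDS 2, against 7.03 in Control 1 and 7.56 in Control 2. Rgs9, the striatal regulator of G-protein signalling, measured 7.24 and 7.13 in R-SDS mice, against 7.23 and 7.52 in Control mice, with Control 2 again the highest. Six3, a homeodomain factor of striatal neurons, ranged over 0.41. It was highest in Control 2 as deposited, but in R-SDS 1 after quantile normalisation. Foxp1, a forkhead factor, and Syndig1l spanned only 0.10 and 0.09 over the 4 arrays.

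Ppp1r1b departed from the other striatal genes. It encodes DARPP-32, the phosphatase inhibitor through which dopamine acts in medium spiny neurons. Ppp1r1b measured 7.84 in R-SDS 1 and 7.02 in R-SDS 2, against 7.17 in Control 1 and 7.04 in Control 2. R-SDS 1 stood above the other 3 mice, which lay within 0.15 of each other, and exceeded R-SDS 2 by 1.76-fold. The group difference was 0.32 (SE 0.27, limma adjusted p = 1), with 0.66 within number 1 and -0.01 within number 2, and it was -0.082 without R-SDS 1. In R-SDS 1, all 13 measured choroid plexus genes and 10 of 11 meningeal genes also had their highest value, against 29.4% of all transcripts. The choroid plexus genes had a mean log2 level of 8.31 in R-SDS 1 and 5.47 in R-SDS 2, against 5.97 in Control 1 and 5.35 in Control 2, and that of the meningeal genes was 7.12 and 6.38, against 6.70 and 6.41. Of the 13 choroid plexus genes, 3 averaged below the lower quartile of all transcripts. Their part in the value of Ppp1r1b was not tested.

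**Figure D2:**
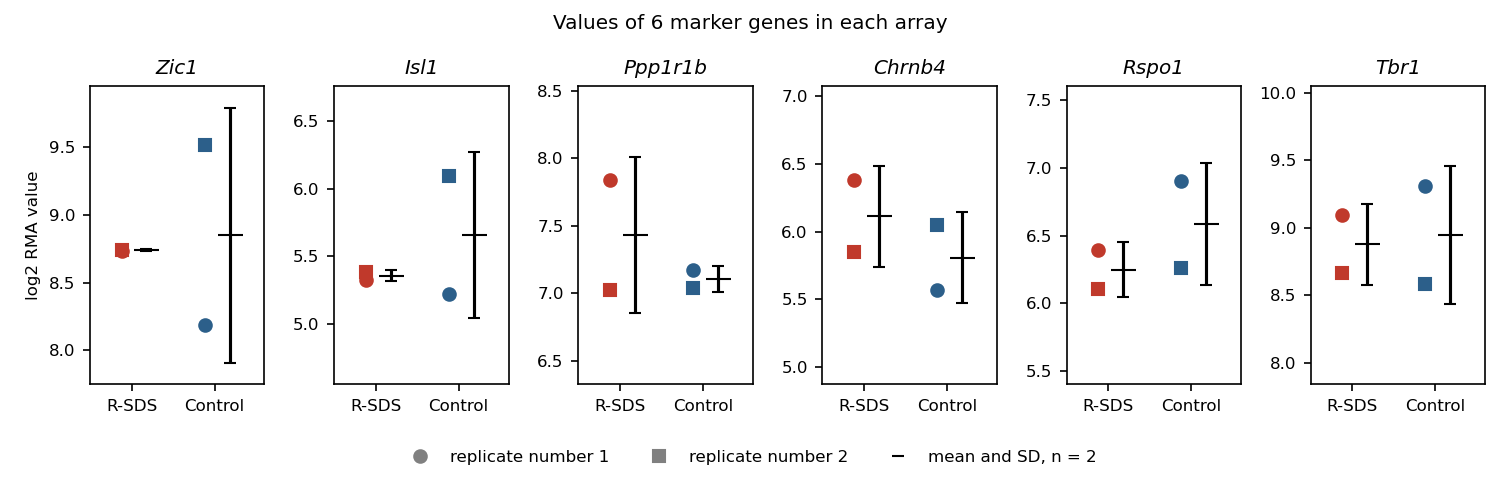
Values of 6 marker genes on the log2 RMA scale (vertical axes) in the R-SDS and Control groups, with circles for replicate number 1, squares for number 2, and group means with error bars of 1 SD (n = 2) beside the points. The 2 R-SDS points of Zic1 (8.74 and 8.75) fall between the 2 Control points (8.18 and 9.52), and R-SDS 1 stands alone for Ppp1r1b at 7.84.

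Neocortical markers separated the mice by replicate number. For 8 of the 10, both mice numbered 1 lay above both mice numbered 2, and for none was the order turned. Of all transcripts 31.6% had this order, and of those at or above the median level 51.7%. After a further quantile normalisation, the order held for 8 of the 10, against 41.4% of the brighter transcripts. The 10 genes deviated by a median of 0.11 in R-SDS 1 and -0.13 in R-SDS 2, against 0.13 in Control 1 and -0.14 in Control 2. This order was not particular to neocortex. It held for 5 of 7 CA1 genes of the hippocampus itself (71.4%), also after quantile normalisation. The same was seen for 8 of 11 meningeal genes (72.7%). Of the 12 oligodendrocyte and white matter genes, all at or above the median level, 6 had this order (50%). That share was near the 51.7% of transcripts at that level. In the CA1, meningeal and oligodendrocyte lists, 0 genes had the order turned.

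Tbr1, the T-box factor of deep-layer and other glutamatergic cortical neurons, measured 9.09 in R-SDS 1 and 8.67 in R-SDS 2, against 9.31 in Control 1 and 8.58 in Control 2. Lamp5, known from superficial cortical layers and from interneurons, measured 8.83 and 8.42 in R-SDS mice, against 9.11 and 8.47 in Control mice. Rspo1, which encodes a secreted enhancer of Wnt signalling, measured 6.39 and 6.10 in R-SDS mice, against 6.90 and 6.26 in Control mice. In each of these 3 genes Control 1 was the highest, at 1.65-fold the level of Control 2 for Tbr1, 1.55-fold for Lamp5 and 1.56-fold for Rspo1. The group differences were -0.07 (SE 0.27) for Tbr1, -0.17 (SE 0.25) for Lamp5 and -0.33 (SE 0.24) for Rspo1, all with a limma adjusted p of 1. Without Control 1 they were 0.30, 0.15 and -0.02.

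Fezf2, the zinc-finger factor that specifies subcortically projecting neurons, measured 9.22 and 9.11 in R-SDS mice, against 9.31 and 8.91 in Control mice, with a group difference of 0.05 (SE 0.17). Rorb, the nuclear receptor of layer 4, measured 9.11 and 9.02 in R-SDS mice, against 8.96 and 8.87 in Control mice. It was the 1 marker of the 32 with both R-SDS arrays above both controls, by a difference of 0.16 (SE 0.13, limma adjusted p = 1) with 0.16 within number 1 and 0.15 within number 2. After centring each array on its median, the groups of Rorb overlapped. Foxp2, a forkhead factor of layer 6, measured 5.99 and 5.83 in R-SDS mice, against 6.01 and 6.19 in Control mice, and its groups were separated by a narrow gap. The remaining neocortical markers, Cux2, Hs3st4, Bcl11b and Cplx3, differed between the groups by -0.06 to 0.03.

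Thalamic markers showed no common direction. Their median difference was 0.03, and the median deviations of the 8 genes were 0.07 in R-SDS 1 and -0.06 in R-SDS 2, against 0.01 in Control 1 and -0.05 in Control 2. Zic1, a zinc-finger factor of dorsal and midline forebrain structures, varied most of the 32 markers. It measured 8.74 in R-SDS 1 and 8.75 in R-SDS 2, against 8.18 in Control 1 and 9.52 in Control 2. The R-SDS mice agreed within 0.01 and fell between the controls, which differed by 1.33, or 2.52-fold. That gap was wider than in 99.9% of all transcripts. Zic1 averaged 8.74 ± 0.01 in R-SDS mice and 8.85 ± 0.94 in Control mice (SD, n = 2), a difference of -0.11 (SE 0.40, limma adjusted p = 1). The difference was 0.55 within number 1 and -0.77 within number 2, 0.56 without Control 2 and -0.78 without Control 1.

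Of the other thalamic genes, Slc17a6, which encodes the vesicular glutamate transporter of thalamic relay neurons, measured 8.23 and 8.01 in R-SDS mice, against 8.36 and 8.10 in Control mice (difference -0.11, SE 0.16). Tcf7l2, the Wnt effector that marks the thalamus from early development on, measured 7.52 and 7.36 in R-SDS mice, against 7.47 and 7.37 in Control mice, a range of 0.16 in which the groups overlapped. In both genes Control 1 lay above Control 2, by 0.27 for Slc17a6 and 0.10 for Tcf7l2, the opposite order to that of Zic1. Lef1, a relative of Tcf7l2, measured 6.85 in R-SDS 1 and 6.46 in R-SDS 2, against 6.49 in Control 1 and 6.50 in Control 2. R-SDS 1 stood alone, as for Ppp1r1b, and the difference of Lef1 (0.16, SE 0.17, limma adjusted p = 1) was -0.031 without R-SDS 1. The choroid plexus and meningeal lists were highest in this mouse too, and their part in the value of Lef1 was not tested. Gbx2, a homeodomain factor of thalamic neurons, measured 5.17 and 5.36 in R-SDS mice, against 5.02 and 5.36 in Control mice.

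Rora, a nuclear receptor of thalamic neurons, had the values 8.04 and 8.06 in R-SDS mice, against 8.28 and 8.06 in Control mice. R-SDS 2 lay below Control 2 by less than 0.01, and the groups overlapped once each array was centred on its median. Rgs16 and Prkch differed between the groups by 0.06 (SE 0.14) and 0.04 (SE 0.16).

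All 5 habenular markers averaged higher in R-SDS mice, by 0.03 to 0.30, as did 11516 of the 21789 transcripts, and the groups of each overlapped. Of the 5, Pou4f1, Gpr151 and Chrna3 averaged below the lower quartile of all transcripts. Within number 2 the R-SDS mouse was the lower for Pou4f1 (-0.02), Chrnb4 (-0.20) and Chrna3 (-0.25). The nicotinic receptor subunits varied most between the mice. Chrnb4 and Chrna3 encode the beta4 and alpha3 subunits of the acetylcholine receptor of the medial habenula. Chrnb4 measured 6.38 in R-SDS 1 and 5.85 in R-SDS 2, against 5.57 in Control 1 and 6.05 in Control 2. Chrna3 measured 4.46 and 4.47 in R-SDS mice, against 4.08 and 4.72 in Control mice. For both subunits Control 2 exceeded Control 1, by 0.48 for Chrnb4 and 0.64 for Chrna3, but the highest mouse was R-SDS 1 for Chrnb4 and Control 2 for Chrna3. The group differences were 0.30 (SE 0.24) for Chrnb4 and 0.07 (SE 0.22) for Chrna3, each with a limma adjusted p of 1. Within number 1 and number 2, Chrnb4 differed by 0.81 and -0.20, and without R-SDS 1 its difference was 0.038. The part of the choroid plexus and meningeal signal of R-SDS 1 in this value was not tested either.

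The other habenular markers had orders of mice unlike those of these subunits. Pou4f1 and Gpr151 averaged below the lower quartile of all transcripts, as Chrna3 did, so their orders cannot be read as habenular content. Pou4f1, the POU factor of habenular neurons, ranged over 0.17, and its mean lay above that of only 10.9% of all transcripts. Gpr151, an orphan receptor of habenular neurons, measured 4.43 and 4.60 in R-SDS mice, against 4.50 and 4.31 in Control mice. Nwd2, whose mean lay above that of 73.9% of all transcripts, measured 8.06 and 7.94 in R-SDS mice, against 8.02 and 7.82 in Control mice. For Gpr151 and Nwd2, unlike Chrna3, Control 2 was the lowest of the 4 mice.

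**Figure D3:**
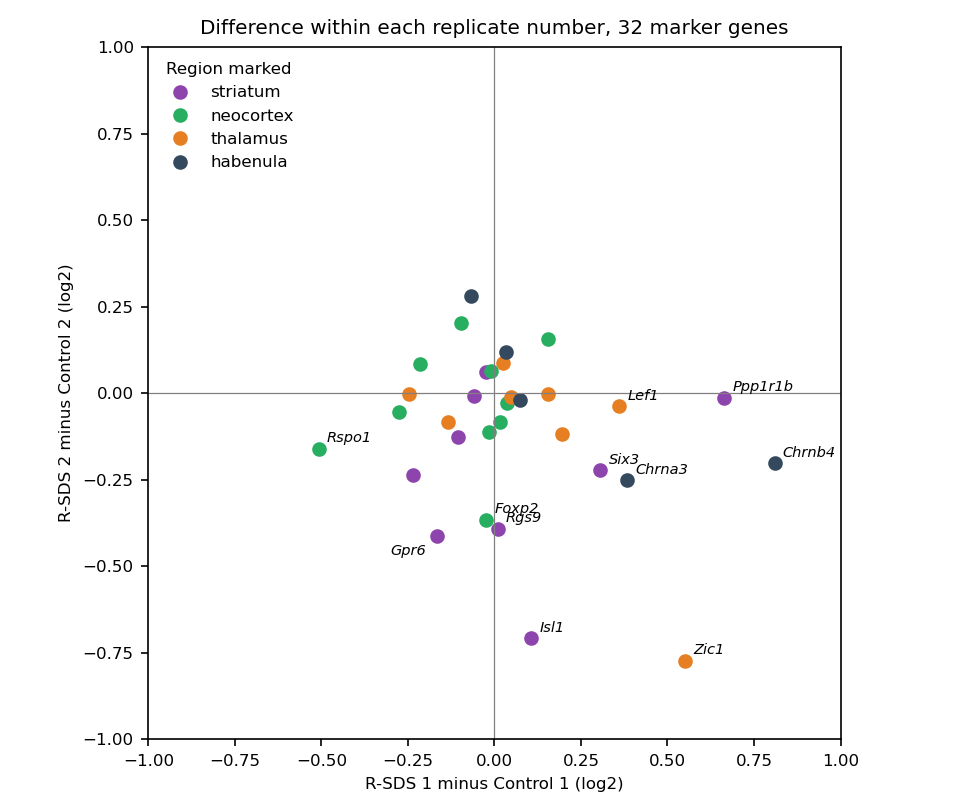
Difference of R-SDS 1 minus Control 1 (horizontal axis) and of R-SDS 2 minus Control 2 (vertical axis), in log2 units, for the 32 marker genes, coloured by the region they mark. The widest points, Zic1 (0.55 and -0.77), Chrnb4 (0.81 and -0.20) and Isl1 (0.11 and -0.71), lie to the lower right, where the difference has opposite signs within the 2 numbers.

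The differences within replicate number 1 and within number 2 had opposite signs for 19 of the 32 markers (59.4%), against 49.4% of all transcripts. Both were negative for 10 markers and both positive for 3. By region, the median differences within number 1 and within number 2 were -0.02 and -0.22 for striatum, -0.02 and -0.04 for neocortex, 0.10 and -0.02 for thalamus, and 0.07 and -0.02 for habenula.

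Further genes of the same regions were read beside the markers. Of 14 measured striatal genes, 8 were highest in Control 2, against 26.1% of all transcripts, and 7 were after quantile normalisation. Of the 14, 8 lie at or above the median level, where 12.8% of transcripts were highest in Control 2. The dopamine receptor gene Drd2, highest in Control 2, measured 6.56 and 6.76 in R-SDS mice, against 6.59 in Control 1 and 7.19 in Control 2. Penk, the enkephalin precursor gene, measured 8.60 and 8.85 in R-SDS mice, against 9.07 and 9.15 in Control mice, and Tac1, the substance P precursor gene, 6.02 and 5.93, against 6.20 and 6.31. Both R-SDS arrays lay below both Control arrays for 3 of the 14 genes (21.4%), Penk, Tac1 and Actn2, against 9.06% of all transcripts, and above both for 0. The groups of Actn2 overlapped once each array was centred on its median. For Penk and Tac1 the differences were -0.39 (SE 0.15) and -0.28 (SE 0.13), with a limma adjusted p of 1 for each. Scn4b and Gpr149 had the widest ranges of this list (0.67 and 0.66). Drd1, the receptor gene of the direct pathway, measured 6.46 and 6.86 in R-SDS mice, against 6.36 and 6.75 in Control mice. For Drd1 and Drd2 alike, both mice numbered 2 lay above both mice numbered 1. This order held for 3 of the 14 genes, against 6352 of the 21789 transcripts. The reverse order held for 5 of the 14, against 6882 of all transcripts.

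Of 18 further neocortical genes, 11 had both mice numbered 1 above both mice numbered 2 (61.1%), against 31.6% of all transcripts and 51.7% of those at or above the median level, where 14 of the 18 lie. Osr1 measured 7.47 and 6.90 in R-SDS mice, against 7.38 and 6.64 in Control mice, and Tshz2 had a range of 0.64 with the same separation by number. Dkkl1 had a range of 0.75 and was lower in both R-SDS mice (5.78 and 5.32) than in both Control mice (6.07 and 5.99), with a difference of -0.48 (SE 0.18, limma adjusted p = 1). Such an order held for 2 of the 18 genes (11.1%), against 9.06% of all transcripts. Of 16 further thalamic genes, 14 averaged lower in R-SDS mice, as did 10270 of the 21789 transcripts, and the median over the list was -0.07. Both R-SDS arrays lay below both controls for 3 of the 16 (18.75%), Calb2, Plekhg1 and Plcb4, against 9.06% of all transcripts. The groups of Plekhg1 overlapped once each array was centred on its median. Calb2, the calretinin gene, measured 7.35 and 7.87 in R-SDS mice, against 8.04 and 8.04 in Control mice (difference -0.43, SE 0.19, limma adjusted p = 1), and Cbln2 had a range of 0.68. Of 13 further habenular genes, 7 averaged higher in R-SDS mice and 6 lower. None of these genes passed an adjusted p of 0.05, and at an unadjusted p under 0.05 limma counted Penk and Dkkl1 alone, against 1.01% of all transcripts.

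The septum was not among the regions for which the markers were chosen. Zic1 is also known from the septum and Isl1 from cholinergic neurons, so the markers cover this border in part. In its order of mice, the septum list resembled these 2 genes. Of its 7 genes, 6 were highest in Control 2, against 26.1% of all transcripts, and 5 after a further quantile normalisation. Only 2 of the 7 lie at or above the median level. There 12.8% of transcripts were highest in Control 2, so that among dimmer transcripts the share was above 26.1%. Slc5a7, the choline transporter gene of cholinergic neurons, measured 4.62 and 4.49 in R-SDS mice, against 4.20 in Control 1 and 5.29 in Control 2. Lhx8, a LIM-homeodomain factor of basal forebrain cholinergic neurons, measured 5.20 and 5.41 in R-SDS mice, against 5.29 in Control 1 and 6.01 in Control 2. The acetylcholine synthesis gene Chat measured 4.47 and 4.68 in R-SDS mice, against 4.22 in Control 1 and 4.87 in Control 2. Slc5a7 and Chat averaged below the lower quartile of all transcripts. The septum list had a mean log2 level of 5.72 in R-SDS 1 and 5.86 in R-SDS 2, against 5.65 in Control 1 and 6.15 in Control 2. Slc5a7, Chat and Slc18a3 belong to the further habenula list as well.

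Among the lists of the hippocampus itself, none of the 12 dentate granule cell genes and none of the 7 CA1 genes was highest in Control 2 in the deposited values (1 CA1 gene was after quantile normalisation), whereas 5 of 7 CA2 genes and 5 of 9 subiculum genes were, against 26.1% of all transcripts. Of the transcripts at or above the median level, only 12.8% were highest in Control 2. There lie 10 of the 12 dentate, all 7 CA1, 5 of the 7 CA2 and 4 of the 9 subiculum genes. The absence of dentate and CA1 genes is therefore little different from the share of transcripts of their level. The median deviation in Control 2 was -0.17 for dentate and -0.17 for CA1 genes, 0.07 for CA2 and 0.20 for subiculum genes. Dentate genes had a median difference of 0.10 between R-SDS and Control, with 4 of 12 above both controls in both R-SDS mice (against 9.41% of all transcripts) and Dsp and C1ql2 ranging most (0.82 and 0.71). Those 4 were C1ql2, C1ql3, Lct and Tdo2. After centring each array on its median, only Tdo2 of them stayed apart, and Stxbp6 came to be apart. After quantile normalisation the count was again 4. The CA3 list moved by a median of -0.04. Of 12 oligodendrocyte and white matter genes, 8 were highest in Control 1, against 22.3% of all transcripts and 31.5% of those at or above the median level, with Aspa and Ermn ranging most (0.72 and 0.57). Of 15 hypothalamic genes, 8 were highest in Control 2 as deposited, against 26.1% of all transcripts. After quantile normalisation 4 were, against 4665 of the 21789 transcripts. Both mice numbered 2 lay above both numbered 1 for 8 of the 15, against 6352 of all transcripts, and the reverse held for 0. Only 3 of the 15 lie at or above the median level. There 1748 of 10895 transcripts had this order, so that among dimmer transcripts the share was higher than among all. Ependymal genes differed by a median of 0.07, and Cfap126 and Rsph1 ranged most (0.91 and 0.68).

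**Figure D4:**
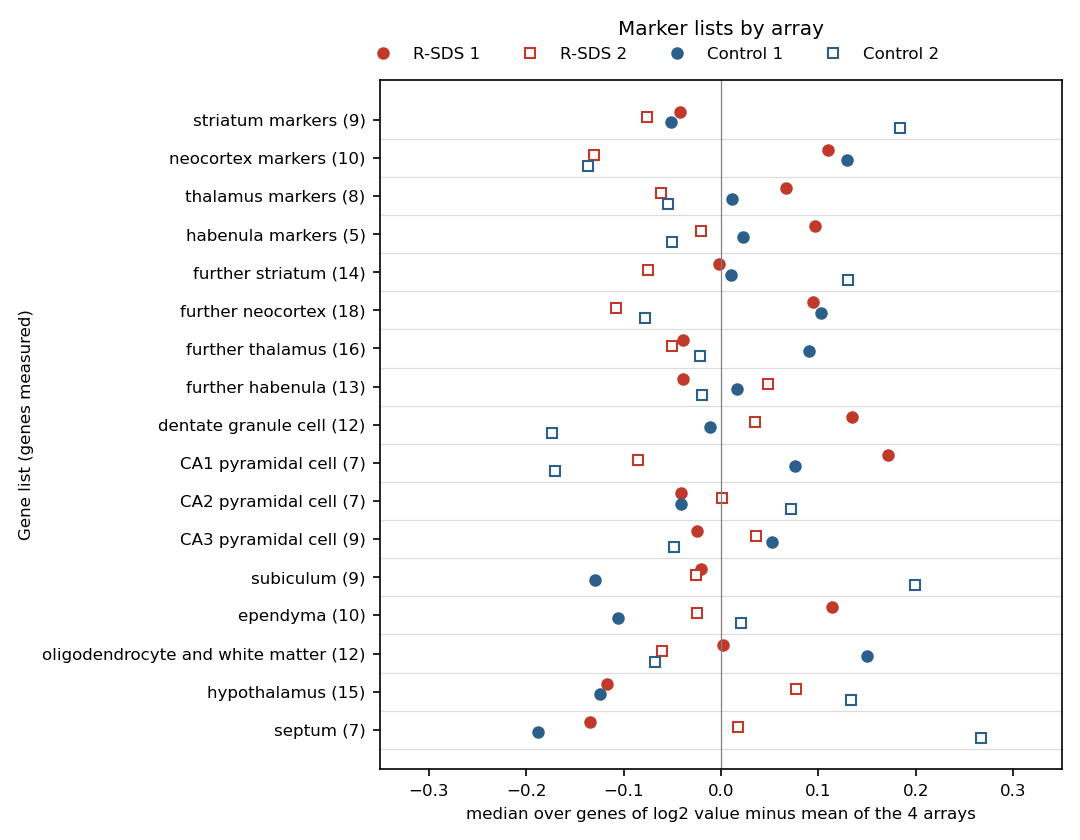
Median over the genes of each list (rows, number of measured genes in brackets) of the log2 value minus the mean of the 4 arrays (horizontal axis), with a point for each array. Control 2 lies to the right for striatum (0.18), septum (0.27) and subiculum (0.20). Both neocortex lists place the mice numbered 1 to the right of the mice numbered 2, as do the thalamus and habenula markers and the CA1 and oligodendrocyte lists. The choroid plexus and meninges lists, whose R-SDS 1 medians are 1.80 and 0.54, are left out of the plot.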

How the data were processed

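Total RNA of dissected hippocampus was labelled with biotin and hybridised to Affymetrix GeneChip Mouse Gene ST arrays. The authors deposited log2 values, which the submitters' processing notes credit to RMA in Affymetrix Expression Console. RMA subtracts background, normalises between arrays and summarises probes, and it compresses differences of dim transcripts. For the genome build, no source used here gives one. Of 35556 rows, 21789 had a single symbol in the platform annotation, 1621 had several and 12146 were not listed there. All 32 members matched RefSeq (GRCm38.p6) by Entrez identifier, and 0 symbols changed. Each gene was represented by its row with the highest mean. The groups were compared with limma 3.58.1 (lmFit, eBayes) in R 4.3.3 over all single-symbol rows, two-sided, with Benjamini-Hochberg adjustment at 0.05, 2 residual and 4.07 prior degrees of freedom and no filter. The methods' t-test is Student's unpaired test, which the study names. The script was tested on simulated data. Nothing in the labels says that the mice came from separate litters or cages, so the p-values describe only how these samples spread, which may be technical. The number of arrays limits the precision. Members and lists were chosen with earlier results of these data known. Values in every array are given for the 4 members per region with the widest range and the brightest, and any further gene was named with its values in view. Figures were drawn with matplotlib 3.10.9.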

Additional observations from a re-analysis of the deposited data

How the results depend on the processing

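With 2 mice a group, single mice set the group differences. The count of markers called stayed at 0 under every alternative (a replicate block, quantile normalisation, median centring, rows at or above the median level, each array left out, the methods' t-test, and the thresholds of the study's methods, a log2 difference beyond 0.5 with an unadjusted p under 0.05). Over all transcripts the count was 0, and it was 1 with median centring, 0 to 49 with an array left out (49 without R-SDS 2, 2 without R-SDS 1), 74 at the thresholds of the study's methods and 19 at these thresholds with the methods' t-test, which was added after seeing the data. The median difference was -0.28 (without Control 1) to -0.033 (without Control 2) for striatum markers and -0.085 (without R-SDS 1) to 0.047 for thalamus markers with an array left out. It was -0.14 (without R-SDS 1) to 0.12 (without Control 1) for neocortex markers and 0.014 to 0.11 for habenula markers. The medians of the thalamus and neocortex markers thus turned sign, and those of the striatum and habenula markers did not. Of the 17 markers given in every array by rule, 0 changed sign with quantile normalisation, median centring or the replicate block. With an array left out 13 did, over ranges of -0.74 to 0.13 for Isl1, -0.082 to 0.73 for Ppp1r1b, -0.38 to 0.15 for Gpr52, -0.033 to 0.070 for Foxp1, -0.43 to 0.30 for Tbr1, -0.48 to 0.15 for Lamp5, -0.15 to 0.26 for Fezf2, -0.78 to 0.56 for Zic1, -0.031 to 0.35 for Lef1, -0.24 to 0.023 for Slc17a6, -0.094 to 0.25 for Gbx2, -0.26 to 0.39 for Chrna3 and -0.025 to 0.18 for Nwd2. The samples share only a number. Mice with the same number deviated together (r = 0.52 across transcripts, which are not independent), and with the replicate block 1047 transcripts had an unadjusted p under 0.05, against 221 without it, and 0 an adjusted one.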
